A study of Mus musculus with 2 samples.

Results

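Connexins are the proteins of gap junctions, and 8 connexin genes are described here across the cell classes of the mouse dentate gyrus: Gja1, Gja4, Gja5, Gjb1, Gjb2, Gjb6, Gjc1 and Gjc3. They were chosen by name, as 8 of the 20 connexin genes in the deposited count table. The values are raw counts of unique molecular identifiers (UMIs, 1 per captured transcript), given as CPM, the UMIs of a gene scaled to the UMIs of its class, and as the share of its cells with at least 1 UMI. Connexin subunits assemble into hemichannels in the cell membrane, and hemichannels of neighbouring cells dock into channels that pass ions and small metabolites. In the brain, Gja1 and Gjb6 are known as astrocyte connexins, Gjb1 and Gjc3 as genes of the oligodendrocyte lineage, and Gja4, Gja5 and Gjc1 as connexins of the vessel wall. Gjb2 is known from the fibroblasts of the brain's coverings, where it lies beside Gjb6 and Gja1.

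The study compared control mice (Nestin-Cre, Phf2+/+) with conditional knockouts (cKO; Nestin-Cre, Phf2flox/flox) at postnatal day 30, with 4 mice and 1 droplet library per genotype. Both groups carried the Nestin-Cre transgene of the strain B6.Cg-Tg(Nes-cre)1Kln/J, in which regulatory sequence of the rat nestin gene drives Cre in neural progenitors and the cells derived from them. The dissociated tissue held cells of vessels, coverings and the immune system beside neural cells. The barcodes separate 2 libraries, but nothing in the labels or files ties either of them to a genotype. Library 1 and library 2 are therefore shown side by side, and genotypes are not compared. Phf2, the targeted gene, stood at 21.9 CPM in library 1 and 16.2 CPM in library 2, which was not used to assign a genotype.

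After filtering, 8025 cells of library 1 (median 8080 UMIs) and 8121 of library 2 (median 7227 UMIs) remained, in 32 clusters and 17 classes. The classes were named from markers that include no connexin, all connexins were left out of clustering, and a name such as RGL-like rests on those markers alone. RGL stands for radial glia-like stem cell, nIPC for neuronal intermediate progenitor, OPC for oligodendrocyte precursor and SMC for smooth muscle cell. In each library, astrocyte-like cells held at least 1 UMI of all 10 astrocyte markers and RGL-like cells of all 11 stem cell markers. Oligodendrocyte-, endothelial-, pericyte-, SMC- and fibroblast-like cells held at least 1 UMI of all 8 of theirs. This does not tell classes apart, since endothelial-like cells also held all 10 astrocyte markers. Summed astrocyte markers stood at 8700 and 9082 CPM in astrocyte-like, 4978 and 4743 CPM in RGL-like and 74.7 and 86.2 CPM in endothelial-like cells. Pericyte-like cells came from 2 unlike clusters, which are described separately below. Endothelial-like cells were divided further, and sub-clusters led by genes of pericytes, astrocytes, microglia, erythroid cells or the oligodendrocyte lineage were not named arterial, capillary or venous. The cells of these sub-clusters stayed in the endothelial-like class and in its values. Intervals are exact 95% Poisson limits for CPM and exact Clopper-Pearson limits for shares. They cover counting error only, since cells are not replicates and there was 1 library per genotype.

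Promoters are shown for Gja1, Gjb2 and Gjb6, the members that were detected together in astrocyte-like and fibroblast-like cells. Each sequence is the 250 bases before a RefSeq start (GRCm38.p6), read 5′ to 3′ on the gene's own strand. Gja1 lies on chromosome 10 (chr10:56377050-56377299, plus strand). Gjb2 (chr14:57104703-57104952) and Gjb6 (chr14:57133612-57133861) lie on the minus strand of chromosome 14, with 18.6 kb between the genes. Capitals mark the GC box GGGCGG or its reverse complement CCGCCC.
Gja1: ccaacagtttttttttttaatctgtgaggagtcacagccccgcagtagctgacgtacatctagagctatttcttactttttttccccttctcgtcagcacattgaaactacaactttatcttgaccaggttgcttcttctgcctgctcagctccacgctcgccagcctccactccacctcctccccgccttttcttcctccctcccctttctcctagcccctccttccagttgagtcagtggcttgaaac
Gjb2: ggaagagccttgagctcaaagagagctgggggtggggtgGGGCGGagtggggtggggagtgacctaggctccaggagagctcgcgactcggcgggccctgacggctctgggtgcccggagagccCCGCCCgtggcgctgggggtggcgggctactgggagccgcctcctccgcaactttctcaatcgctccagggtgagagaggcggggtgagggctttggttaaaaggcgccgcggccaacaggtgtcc
Gjb6: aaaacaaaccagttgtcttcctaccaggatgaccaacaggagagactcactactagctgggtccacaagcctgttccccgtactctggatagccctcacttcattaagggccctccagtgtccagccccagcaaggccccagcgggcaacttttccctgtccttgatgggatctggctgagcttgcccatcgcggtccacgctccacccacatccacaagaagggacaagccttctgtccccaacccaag

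The Gjb2 window held 2 GC boxes, starting 211 bases before the start on the gene's strand and 126 bases before it on the other strand. The Gja1 and Gjb6 windows held none, and 32.7% of 32851 RefSeq promoter windows of this length held at least 1. Neither the TATA box TATAAA (12.4% of windows, either strand) nor the SOX core CATTGT (10.7%, either strand) occurred in these 3 windows. GC content was 69.2% for Gjb2 and 56.8% for Gjb6, and lower for Gja1. RefSeq promoters were found for 7 of the 8 members. The counts come from 3′ ends of transcripts and do not show which start was used.

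**Figure D1:**
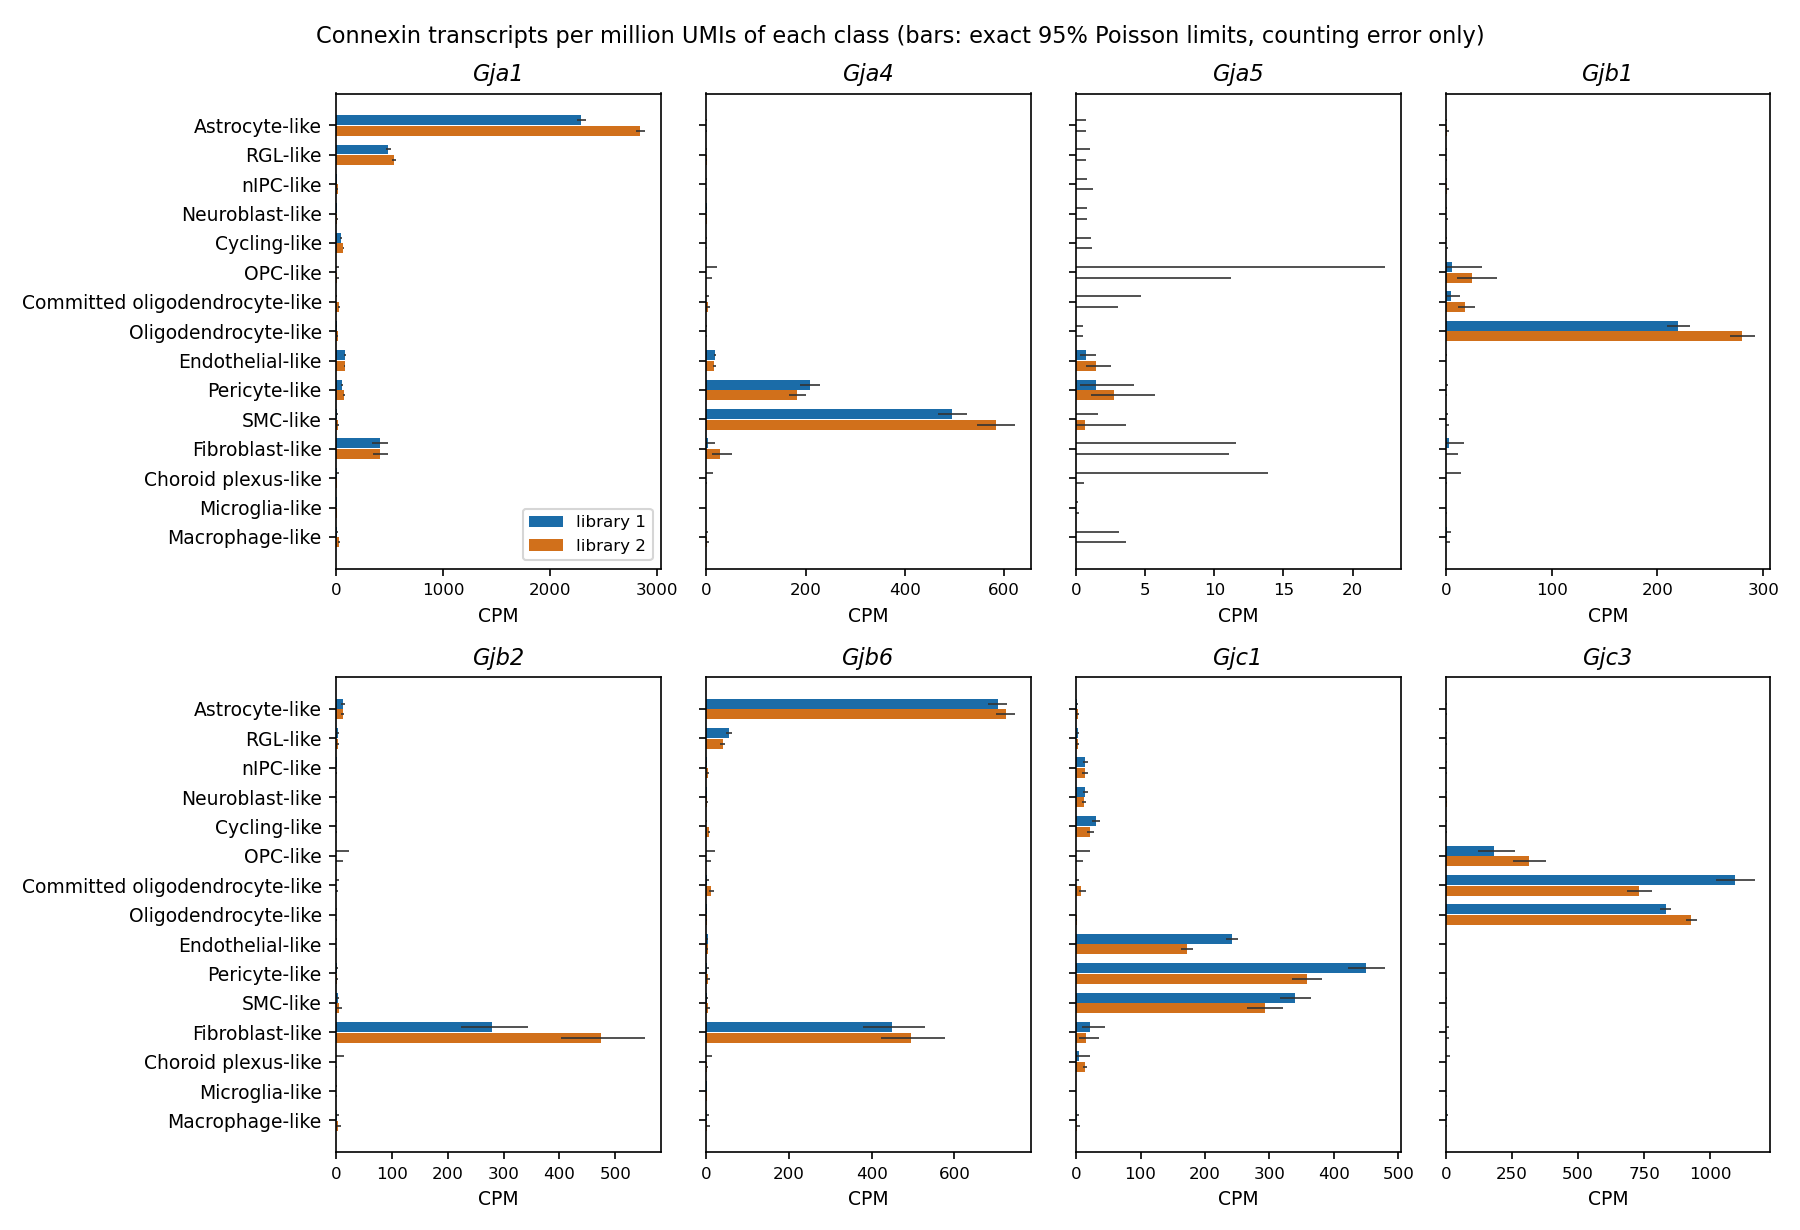
CPM of each connexin (horizontal axis, from 0, separate for each gene) in 15 of the classes and sub-clusters, for library 1 (blue) and library 2 (orange), with exact 95% Poisson limits as lines. Gja1 and Gjb6 are highest in astrocyte-like cells, Gjb1 in oligodendrocyte-like cells, Gjb2 in fibroblast-like cells, Gja4 in SMC-like cells and Gjc1 in pericyte-like cells.

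Gja1, the main connexin of astrocytes and of adult neural stem cells, was the most abundant member by UMIs. Of its 15027 UMIs in library 1, 11586 lay in astrocyte-like cells. In library 2 these were 14737 of 19213. Astrocyte-like cells stood at 2291 CPM (2249 to 2333) in library 1 and 2845 CPM in library 2, and 88.7% and 91.4% of them held a UMI. RGL-like cells followed at 486 and 536 CPM, with 82.5% and 81.3% of cells positive. Fibroblast-like cells came next at 405 and 411 CPM. The Poisson limits of these last neighbours met, although both RGL-like libraries lay above both fibroblast-like ones.

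Below these, Gja1 stood at 80.1 and 79.1 CPM in endothelial-like cells, 52.05 and 68.3 CPM in pericyte-like cells and 42.8 and 66.6 CPM in cycling cells. The ranges of pericyte-like and cycling cells overlapped, so these neighbours could not be ordered. Microglia-like cells held Gja1 in 3.66% and 5.27% of cells at median depths of 7814.5 and 6895.5 UMIs. Gja1 stood at 178.9 and 179.3 CPM in free RNA, and its part in the microglia-like values was not tested. nIPC- and neuroblast-like cells together held a Gja1 UMI in 3.53% and 5.15% of cells at median depths of 9970 and 8142.5 UMIs.

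Gjb6, the second astrocyte connexin, had the same leading class and a steeper fall to stem cells. It stood at 704 and 724 CPM in astrocyte-like cells, of which 75.4% and 80.1% were positive. RGL-like cells held 54.4 and 39.4 CPM, in 21.5% and 16.2% of cells. Microglia-like cells were positive in 1.745% and 1.499%, below the RGL-like shares in both libraries. Gja1 and Gjb6 were found in the same cell in 73.3% of astrocyte-like cells of library 1 and 78.8% of library 2, against 20.8% and 14.8% of RGL-like cells at a greater median depth.

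Gjb2 was found at a low level in astrocyte-like cells. It stood at 12.1 and 11.2 CPM there, in 5.77% and 6.07% of cells, and at 2.65 and 2.20 CPM in RGL-like cells. In microglia-like cells it was present in 0.0684% and 0.0405% of cells. Nearly all Gjb2-positive astrocyte-like cells also held Gja1: 52 of 53 in library 1 and 56 of 56 in library 2. Of these Gjb2-positive cells, 49 and 54 lay in cluster 2, where 99.7% and 99.9% of all cells held Gja1. The joint counts therefore do not show a link between Gjb2 and Gja1.

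Astrocyte-like and RGL-like cells were compared with edgeR's quasi-likelihood test on counts summed per library and class, with library as a block and Benjamini-Hochberg adjustment over all 12387 genes tested. Of the 8 members, 4 passed the filter on low counts, and 3 were higher in astrocyte-like cells, where 48.9% of all genes tested differed and 25.7% were higher. Gja1 was higher by 2.66 ± 0.08 (log2 difference ± SE, edgeR adjusted p = 1.4e-17), by 2.57 in library 1 and 2.75 in library 2. Gjb6 was higher by 4.28 ± 0.11 (edgeR adjusted p = 1.7e-18) and Gjb2 by 2.59 ± 0.30 (edgeR adjusted p = 1.7e-07). Gjc1, a connexin of mural and endothelial cells, differed by 0.19 ± 0.49 (edgeR adjusted p = 0.78) on 9 and 13 UMIs in astrocyte-like cells. The median over all genes tested was -0.01. Each class also held the other's markers: RGL-like cells carried 4978 and 4743 CPM of summed astrocyte markers, against 8700 and 9082 CPM in astrocyte-like cells.

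Shallow cells shaped the astrocyte-like values. Cluster 10, with 341 and 231 cells and a median of 1813 and 1805 UMIs, held Gja1 at 1026 and 1185 CPM, while cluster 2 held it at 2516 and 3010 CPM. With the largest cluster of each class alone, the Gja1 difference was 2.73 and the Gjb6 difference 4.35. In cluster 2 alone, 99.7% and 99.9% of cells held Gja1 and 95.5% and 95.7% held Gjb6.

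The step from stem cells to the neuronal lineage was tested between RGL-like cells and nIPC- with neuroblast-like cells. Of the 4 members that passed the filter, 3 were higher in RGL-like cells and 1 was lower, beside 36.3% and 36.1% of all 13206 genes tested (72.4% in either direction). Gja1 stood at 486 and 536 CPM against 6.42 and 9.88 CPM, a log2 difference of 6.06 ± 0.12. Gjb6 was higher by 4.51 ± 0.21 (edgeR adjusted p = 1.7e-97) and Gjb2 by 3.73 ± 0.74 (edgeR adjusted p = 9.5e-07), the latter on 3 UMIs in neuronal progenitors. Gjc1 went the other way. It stood at 2.39 and 2.40 CPM in RGL-like cells and at 14.2 and 12.8 CPM in nIPC- and neuroblast-like cells, a log2 difference of -2.40 ± 0.31 (edgeR adjusted p = 1.7e-14). Gjc1 was present in 11.5% and 8.93% of these progenitors, in 1.22% and 1.36% of RGL-like cells and in 0.171% and 0.162% of microglia-like cells.

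**Figure D2:**
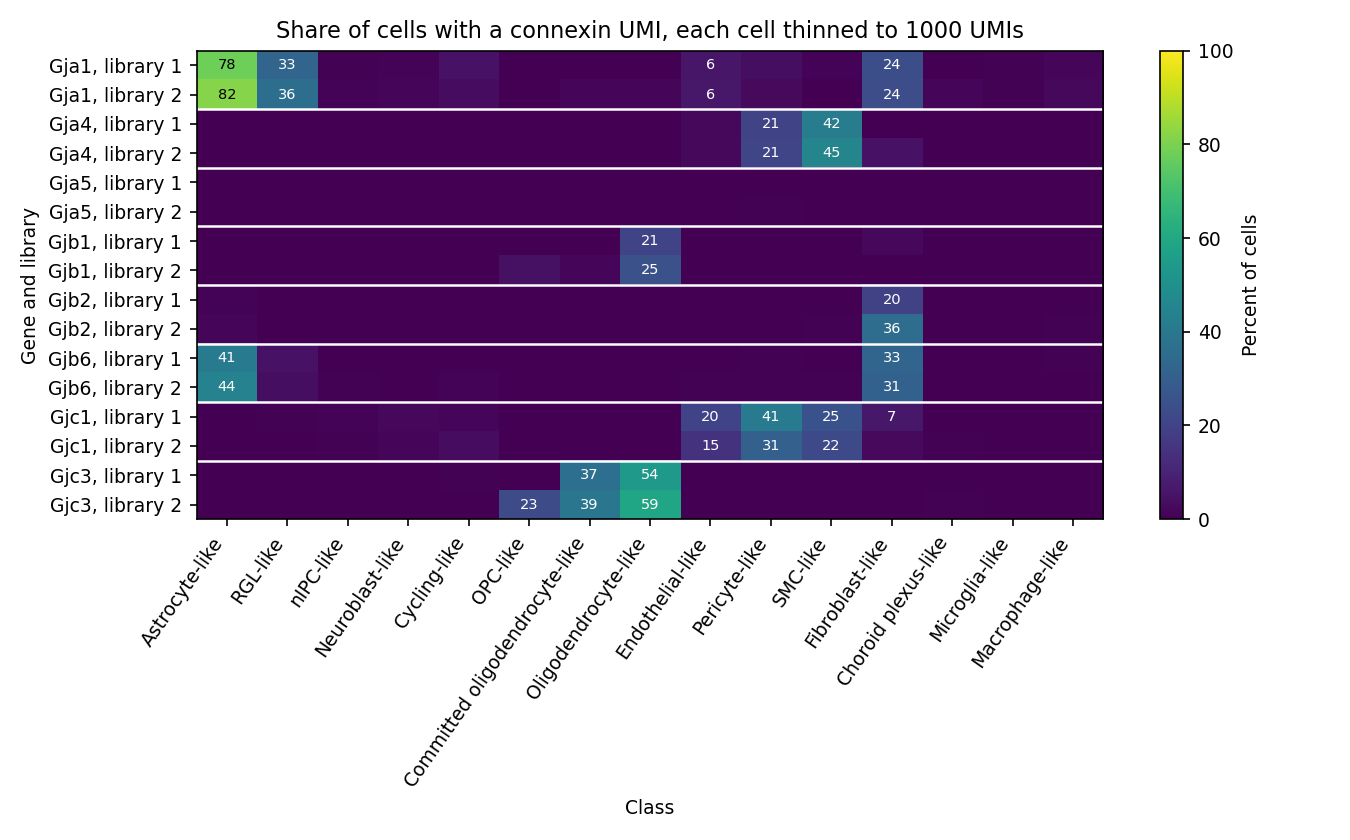
Share of cells with at least 1 UMI of each connexin (rows, 1 per gene and library) in each class (columns), after every cell was thinned at random to 1000 UMIs; colour and printed numbers give the percent of cells, and shares under 5% are not printed. Gja1 remains in 78.1% and 82.0% of astrocyte-like cells and Gjc3 in 54.3% and 59.1% of oligodendrocyte-like cells.

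Shares of cells were also taken at equal depth. After thinning to 1000 UMIs, which left out no cell, Gja1 was found in 78.1% and 82.0% of astrocyte-like cells and 32.7% and 36.0% of RGL-like cells. Gjb6 was found in 41.2% and 44.2% of astrocyte-like cells and 4.90% and 3.71% of RGL-like cells. In fibroblast-like cells the Gjb6 share went from 73.9% and 83.3% to 32.6% and 31.0%, so that in library 2 it lay above the astrocyte-like share before thinning and below it after. For Gjb1 in oligodendrocyte-like cells the share went from 97.3% and 93.6% to 20.6% and 24.9%.

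In the oligodendrocyte lineage, Gjb1, which oligodendrocytes share with Schwann cells and hepatocytes, had 98.5% of its UMIs in oligodendrocyte-like cells. It stood there at 219.5 and 280 CPM, in 97.3% and 93.6% of cells. Microglia-like cells held 0.12 and 0.22 CPM. Gjc3 stood at 831 and 929 CPM in oligodendrocyte-like cells, in 99.3% and 98.6% of them. Both transcripts were found together in 96.9% and 93.6% of oligodendrocyte-like cells, whose median depth was 23807 and 21750 UMIs.

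Gjc3 was also found in a cluster named committed oligodendrocyte-like, which also scored for OPC markers. It held Gjc3 at 1094 and 732 CPM in 70.4% and 67.9% of cells, and in 36.6% and 39.3% after thinning, against 54.3% and 59.1% of oligodendrocyte-like cells. These values are not those of 1 cell type. The sub-clusters included 1 of 27 deep cells (median 19270 UMIs) led by the mature oligodendrocyte genes Mal and Mobp with the vessel genes Vtn, Cldn5 and Rgs5, and others led by haemoglobin, microglial or neuronal progenitor genes. The CPM of its libraries lay on both sides of the oligodendrocyte-like values, so the 2 classes could not be ordered for Gjc3. The same cluster held Gjb1 at 5.07 and 18.0 CPM. Another sub-cluster, named OPC-like from 8 markers, had 20 cells in library 1 and 44 in library 2. In OPC-like cells Gjc3 stood at 182 and 313 CPM and was found in 65.0% and 61.4% of cells. Gjb1 stood at 6.06 CPM (1 UMI) and 24.3 CPM (8 UMIs) there.

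Between oligodendrocyte-like and OPC-like cells, 3 members passed the filter and 2 were higher in oligodendrocyte-like cells, beside 22.2% of all genes tested (42.5% in either direction, 20.4% lower). The differences were 4.57 ± 0.31 for Gjb1 (edgeR adjusted p = 1.0e-46) and 2.53 ± 0.18 for Gjc3 (edgeR adjusted p = 1.3e-43). Each library gave the same direction, with 5.92 and 4.24 for Gjb1 and 2.95 and 2.29 for Gjc3. Scaling by total counts moved the median of all genes by -0.74 in this contrast and left both members higher, at a lowest value over all alternatives of 3.84 for Gjb1 and 1.79 for Gjc3. Gja1 differed by 1.72 ± 1.01 (edgeR adjusted p = 0.16) on 0 and 2 UMIs in OPC-like cells. The alternatives moved it between -0.35 and 2.74, and it passed with doublets kept (2.74, adjusted p = 0.0045).

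Astrocyte-like and oligodendrocyte-like cells divided the members between them. Of 6 members that passed the filter, 4 were higher in astrocyte-like cells and 2 in oligodendrocyte-like cells, beside 35.2% and 34% of all genes tested (69.3% in either direction). Gja1 was higher in astrocyte-like cells by 8.78 ± 0.50 and Gjb6 by 9.14 ± 0.19, while Gjb1 differed by -8.54 ± 0.24 and Gjc3 by -9.28 ± 0.22. The edgeR adjusted p was 2.6e-06 for Gja1 and under this value for the other 3. Gjb2 had 0 UMIs in oligodendrocyte-like cells of both libraries. Taking 3 UMIs per library as the limit of a count of 0, it was at least 28.7-fold and 29.6-fold higher in astrocyte-like cells. Gjc1, at 1.78 and 2.51 CPM against 0 and 0.884 CPM, differed by 2.22 ± 0.82 (edgeR adjusted p = 0.043). That call was lost with DESeq2 (adjusted p = 0.19) and with doublets kept (adjusted p = 0.56).

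The Gja1 UMIs of oligodendrocyte-like cells were few and uneven. Library 1 held 13 UMIs (1.82 CPM) and library 2 held 89 (11.2 CPM), of which 22 lay in 1 cell. Oligodendrocyte-like cells were positive in 4.12% and 8.96% at median depths of 23807 and 21750 UMIs, against 3.66% and 5.27% of the shallower microglia-like cells.

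**Figure D3:**
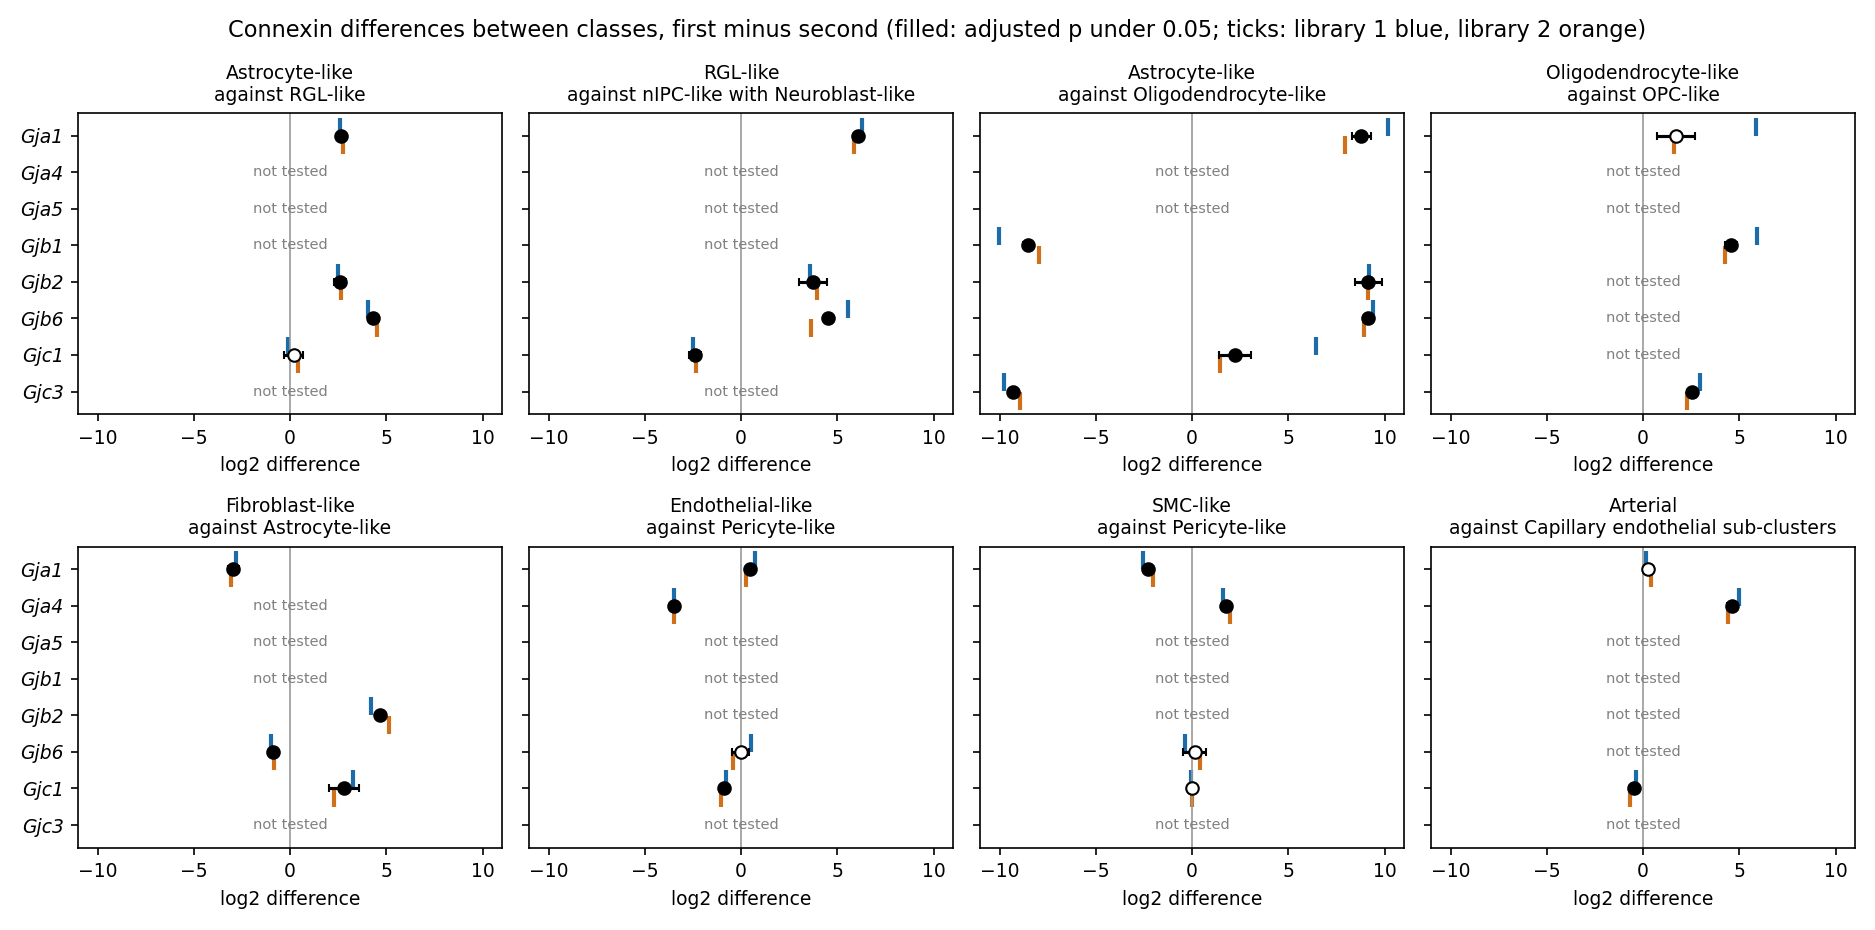
Log2 difference (horizontal axis, first class minus second) of each connexin in 8 comparisons of classes: circles with SE bars are edgeR estimates (filled where adjusted p is under 0.05), and ticks are the difference within library 1 (blue) and library 2 (orange); where a class held 0 UMIs, as for Gjb2 in oligodendrocyte-like cells, the plotted value depends on a prior count. The filled circles of Gja1, Gjb2 and Gjb6 lie right of 0 for astrocyte-like against RGL-like cells and for RGL-like cells against neuronal progenitors, and Gja4 lies at 4.63 for arterial against capillary sub-clusters.

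Fibroblast-like cells, 46 in library 1 and 42 in library 2, held Gja1, Gjb2 and Gjb6 together. Gjb2 had its highest level there, at 279 CPM (224 to 344) and 474 CPM (403 to 554), in 67.4% and 76.2% of cells. Library 2 lay above library 1 for Gjb2, and the limits did not meet. Gjb6 stood at 449 and 495 CPM and Gja1 at 405 and 411 CPM. Gjb2 and Gjb6, the neighbours on chromosome 14, were found in the same cell in 58.7% and 69.0% of fibroblast-like cells, against 5.56% and 5.96% of astrocyte-like cells. Gjb2 itself was found in 5.77% and 6.07% of astrocyte-like cells, so the joint share there could be no higher. The summed 10 astrocyte markers stood at 47.1 and 105.0 CPM in fibroblast-like cells, below Gja1 and Gjb6, whereas in astrocyte-like cells they were 8700 and 9082 CPM, above both.

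Against astrocyte-like cells, all 4 members that passed the filter differed, 2 in each direction, beside 17.2% of all genes tested higher and 19.7% lower (36.9% in all). Gjb2 was higher in fibroblast-like cells by 4.69 ± 0.22 (edgeR adjusted p = 1.7e-98). Gja1 differed by -2.94 ± 0.27 (edgeR adjusted p = 1.2e-25) and Gjb6 by -0.89 ± 0.23 (edgeR adjusted p = 0.00033), both lower in fibroblast-like cells. The Gjb6 difference was -0.59 under total-count scaling, which moved the median of all genes by 0.30. Gjc1 was higher by 2.78 ± 0.77 (edgeR adjusted p = 0.0014) on 7 and 5 UMIs in fibroblast-like cells, and that call was lost with DESeq2 (adjusted p = 0.059). Gja3, the lens connexin that lies 40.6 kb from Gjb2 on the other side, had 3 UMIs in all kept cells.

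In the vessel wall, 4 members were divided among endothelial cells, pericytes and smooth muscle. Gja4, a connexin of arteries, had 61.5% of its UMIs in SMC-like cells, at 496 and 583 CPM in 95.3% and 93.2% of cells. Pericyte-like cells followed at 209 and 183 CPM in 81.5% and 79.8% of cells. Endothelial-like cells stood at 17.4 and 15.98 CPM. Fibroblast-like cells, at 3.14 CPM (1 UMI) and 27.0 CPM (9 UMIs), could not be ordered against endothelial-like cells. Microglia-like cells held 0.24 and 0.22 CPM.

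Gjc1 was spread over all 3 vascular classes. It stood at 449.8 and 358 CPM in pericyte-like cells, 340 and 292 CPM in SMC-like cells and 241.5 and 172 CPM in endothelial-like cells. Both libraries of each class lay above both libraries of the next, although the limits of pericyte- and SMC-like cells met. The share of positive cells was 90.2% and 91.7% in pericyte-like, 92.7% and 85.6% in SMC-like and 79.7% and 69.3% in endothelial-like cells. Gja4 and Gjc1 were found together in 89.0% and 80.3% of SMC-like cells and 74.5% and 73.6% of pericyte-like cells.

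The pericyte-like class joined a shallow and a deep cluster. Cluster 21 (116 and 101 cells, median 4401.5 and 4122 UMIs) held the 8 pericyte markers at 27410 and 26850 CPM and the 8 endothelial markers at 345 and 401 CPM. Cluster 23 (68 and 92 cells, median 19624 and 21010 UMIs) held pericyte markers at 9674 and 9231 CPM and endothelial markers at 14710 and 14940 CPM. Its leading genes included 8 pericyte markers, so the rule kept its name. Gja4 stood at 395.5 and 413 CPM in cluster 21 and at 131 and 127 CPM in cluster 23. Gjc1 stood at 607 and 529.5 CPM in cluster 21 and at 384.5 and 316 CPM in cluster 23. Gja1 was the reverse, with 22.8 and 10.1 CPM in cluster 21 and 64.2 and 82.45 CPM in cluster 23. The part of endothelial transcripts in these values was not tested.

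Endothelial-like cells, including the sub-clusters left without a name, were compared with the whole pericyte-like class. Of 4 members that passed the filter, 1 was higher and 2 were lower in endothelial-like cells, beside 13.6% and 15.7% of all genes tested (29.3% in either direction). Gja4 differed by -3.48 ± 0.11 (edgeR adjusted p = 5.3e-11) and Gjc1 by -0.91 ± 0.09 (edgeR adjusted p = 9.1e-06). Gja1 was higher by 0.46 ± 0.13 (edgeR adjusted p = 0.017), by 0.73 in library 1 and 0.24 in library 2. The Gja1 call was lost with DESeq2 (adjusted p = 0.26), with all classes in 1 fit (adjusted p = 0.17) and without the library block (adjusted p = 0.057). With the largest cluster of each class alone, which for pericytes was cluster 21, the differences were -4.45 for Gja4, -1.33 for Gjc1 and 2.37 for Gja1. Gjb6 was found in 2.21% and 2.76% of endothelial-like and 2.72% and 3.63% of pericyte-like cells, against 1.745% and 1.499% of microglia-like cells.

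SMC-like and pericyte-like cells differed in 2 of the 4 members that passed the filter, 1 in each direction, beside 23.9% of all genes tested higher and 25% lower (48.9% in all). Gja4 was higher in SMC-like cells by 1.78 ± 0.12 (edgeR adjusted p = 3.7e-11). Against cluster 21 alone that difference was 0.71 ± 0.12 (edgeR adjusted p = 6.5e-05). Gja1 stood at 6.98 and 13.7 CPM in SMC-like cells and differed by -2.26 ± 0.23 (edgeR adjusted p = 3.1e-08). The Gja1 call was lost against cluster 21 alone (-0.49, adjusted p = 0.49), and with doublets kept the value was 0.08 (adjusted p = 0.74). Gjc1 differed by -0.03 ± 0.11 (edgeR adjusted p = 0.87). It was lower in SMC-like cells against cluster 21 alone (-0.54, adjusted p = 0.00089) and under total-count scaling (-0.35, adjusted p = 0.0086). Gjb6 passed in the same contrast with doublets kept (1.93, adjusted p = 0.0020).

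**Figure D4:**
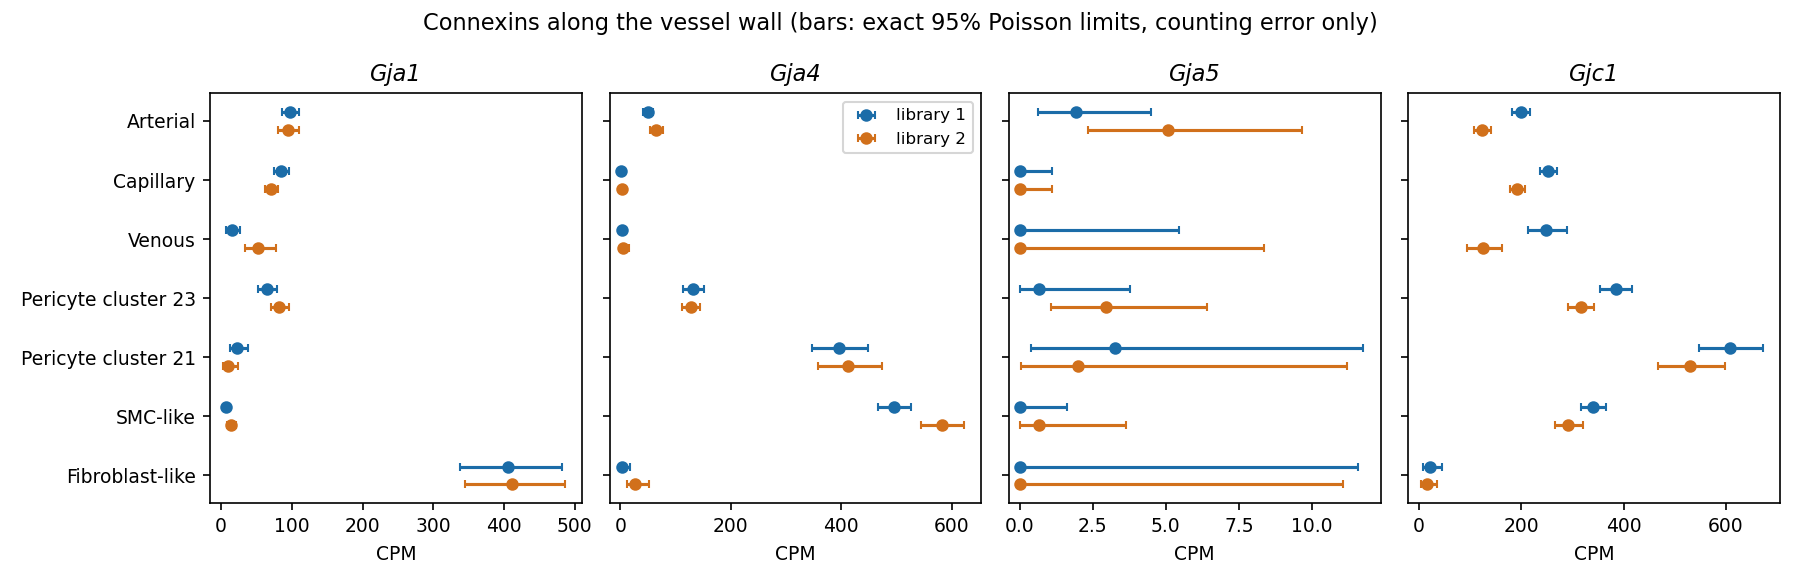
CPM of Gja1, Gja4, Gja5 and Gjc1 (horizontal axes, separate scales) along the vessel wall, in endothelial sub-clusters, the 2 pericyte-like clusters, SMC-like and fibroblast-like cells; points are library 1 (blue) and library 2 (orange) and lines exact 95% Poisson limits. Gja4 stands at 1.51 and 2.965 CPM in capillary-like cells and 496 and 583 CPM in SMC-like cells.

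Within the endothelium, Gja4 marked the arterial-like cells. It stood at 49.7 and 64.4 CPM in 230 and 183 arterial-like cells, of which 30.0% and 30.1% held a UMI. Capillary-like cells, 300 and 330 in number, held 1.51 and 2.965 CPM. The difference was 4.63 ± 0.26 (edgeR adjusted p = 2.9e-38), 4.98 in library 1 and 4.41 in library 2. SMC markers summed to 68.5 and 55.4 CPM in arterial-like and 25.3 and 22.8 CPM in capillary-like cells. In SMC-like cells the same markers summed to 48810 and 46220 CPM beside 496 and 583 CPM of Gja4.

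Of the 3 members tested there, Gjc1 was lower in arterial-like cells and Gja1 missed the threshold, beside 21.1% of all genes tested, 11.2% higher and 9.93% lower in arterial-like cells. Gjc1 stood at 199.8 and 123 CPM in arterial-like and 253 and 192 CPM in capillary-like cells, a difference of -0.49 ± 0.09 (edgeR adjusted p = 1.7e-06). That call was lost without the library block (adjusted p = 0.30). Gja1 stood at 97.4 and 94.4 CPM against 85.0 and 70.6 CPM, a difference of 0.28 ± 0.11 (edgeR adjusted p = 0.062). The alternatives moved Gja1 between -0.15 and 0.66, and it passed with the largest sub-cluster of each class alone (adjusted p = 3.1e-06) and under total-count scaling (adjusted p = 0.043). Venous-like cells, 28 and 26 in number, held Gja1 at 14.8 and 52.1 CPM and Gjc1 at 249 and 125 CPM. Both venous-like values of Gja1 lay below both capillary-like and both arterial-like values, a difference that was not tested. In library 2 the Poisson limits of venous- and capillary-like cells met. The median depth of venous-like cells was 28146 UMIs in library 1 and 8905 in library 2. For Gjc1 the venous-like libraries lay too far apart to order them.

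Gja1 of endothelial cells was set beside markers of astrocytes. The 10 astrocyte markers summed to 34.95 and 36.2 CPM in capillary-like cells, under the 85.0 and 70.6 CPM of Gja1, and to 103.6 and 77.4 CPM in arterial-like cells, near its Gja1. In astrocyte-like cells they summed to 8700 and 9082 CPM, above the 2291 and 2845 CPM of Gja1. Gja1 was found in 45.3% and 43.0% of capillary-like cells.

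Gja5, an endothelial connexin of arteries, was near the limit of detection, with 10 UMIs in library 1 and 21 in library 2. Arterial-like cells held 5 and 9 of these, at 1.925 and 5.09 CPM. Pericyte-like cells held 3 and 7, at 1.43 and 2.76 CPM. Of these, 1 and 6 lay in cluster 23, whose endothelial markers stood above its pericyte markers. Capillary- and venous-like cells held 0 UMIs. In the few venous-like cells the upper limits were 5.46 and 8.36 CPM, above the arterial-like values, so a lower level in venous-like cells is not shown. No contrast tested Gja5, since it never passed the filter on low counts.

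Among other connexins of the family, Gjd2, the connexin of electrical synapses, stood at 7.91 and 8.30 CPM in nIPC- and neuroblast-like cells and had 0 UMIs in RGL-like cells. With 3 UMIs per library as the limit of a count of 0, Gjd2 was at least 9.94-fold and 13.8-fold higher in the neuronal progenitors. Gjd3 and Gje1 had 0 UMIs in kept cells, and Gja6 had 5 in library 1 and 18 in library 2.

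Each member was compared with 11840 genes by Pearson correlation of log2 CPM over 34 profiles, 17 classes in 2 libraries, which share libraries and depth and are no independent samples. Gja1 was most like Papss2 (r = 0.90), Scara3 and Fgfr3, and Gjb6 most like Ranbp3l (r = 0.94) and Slc7a11, which was also second for Gjb2. Gjb2 was most like the collagen gene Col1a1 (r = 0.91). Gja4 was most like Mylk (r = 0.96), a kinase of smooth muscle contraction, and Des. Gjb1 was most like Prima1 (r = 0.96) and Nkx6-2, and Gjc3 most like Fa2h (r = 0.98), an enzyme of myelin lipids. Gjc1 was most like Ehd2 (r = 0.88). Among members, the likest pairs were Gja1 with Gjb6 (r = 0.88), Gjb1 with Gjc3 (r = 0.87), Gja4 with Gjc1 (r = 0.84) and Gjb2 with Gjb6 (r = 0.82).

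The 2 libraries gave the same leading class for 7 members, the exception being Gjc3. For Gja5 that class was pericyte-like, on only 3 and 7 UMIs. Its Poisson limits there met those of endothelial-like cells, so the leading class of Gja5 is not settled. Of 42 pairs of member and class with at least 20 UMIs, the Poisson limits of the libraries did not meet in 17, and library 2 was higher in 13 of them. Over all genes in the same classes the limits did not meet in 7.81% of 172224 such pairs, with library 2 higher in 3.63%, at counts not matched to those of the members. Among the leading classes these were Gja1 in astrocyte-like cells (ratio 1.24), Gja4 in SMC-like cells (1.18), Gjb1 in oligodendrocyte-like cells (1.28) and Gjb2 in fibroblast-like cells (1.697). Gjc3 was higher in library 2 in oligodendrocyte-like cells (1.12) and lower in committed oligodendrocyte-like cells (0.669). Gjc1 was lower in library 2 in pericyte-like cells (0.796) and in endothelial-like cells (0.713), which are not its leading class. With 1 library per genotype and no key to genotype, genotype, library preparation and depth cannot be told apart in these ratios.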

How the data were processed

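The deposited counts were raw UMI counts of both libraries in 1 unfiltered table of 13589760 barcodes, made with Cell Ranger 4.0.0 per the file headers; mm10 and Scanpy 1.7.0 are named in the submitters' processing notes. Barcodes ended in 1 (library 1) or 2 (library 2), with 102897659 and 107266420 UMIs, and 22 barcode sequences occurred among kept cells of both. Barcodes with at least 1000 UMIs, 500 genes and at most 20% mitochondrial UMIs were kept. Scrublet in scanpy 1.11.5 marked 230 (2.79%) and 260 (3.10%) as doublets, which were removed. Barcodes under 100 UMIs gave the free RNA profile.

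Cells were clustered on 2991 variable genes (40 components, 15 neighbours, Leiden resolution 1) without connexins, pannexins, mitochondrial and sex-linked genes. A name needed 3 markers in 25% of cells and a mean log2 score of at least 1 (10 CPM added), with no unrelated class at 0.75 times that score. These scoring limits, the sub-cluster limit of 0.25 and the sub-clustering that gave OPC-like cells were set after the data were seen, and 351 and 350 cells stayed unnamed. Members and lists were chosen with earlier results of these data known.

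Counts per library and class were tested with edgeR 4.0.16 (R 4.3.3): filterByExpr, TMM, 2-sided quasi-likelihood test, library as a block, threshold 0.05. With 1 residual degree of freedom per contrast, edgeR took most of each gene's spread from the other genes, and p-values do not measure the spread between mice. All 8 members are named whatever their values, and other genes by family, by lists of pannexins and scaffold genes, or as the 3 most alike with at least 20 CPM in a class. The test was checked on simulated counts with the same spread in every contrast and changes only in genes with higher counts. That check does not cover members with few UMIs or the wider spread of some contrasts. Alternatives were DESeq2 1.42.0, total-count scaling, no filter, no block, all classes in 1 fit, other clusterings, doublets kept, free RNA subtracted, a 10% mitochondrial limit and, added after the data were seen, the largest cluster of each class alone. Genotypes were not compared, since no source used here ties a library to one. Some other genes of the family are not reported here. Sequences are from RefSeq.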

Additional observations from a re-analysis of the deposited data

Results flagged for a closer look

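In 3 results the differences between classes had opposite signs in the 2 libraries; the difference between libraries was not tested, and none passed the threshold in the edgeR test over both libraries, although Gjb6 in SMC-like against pericyte-like cells passed with doublets kept (1.93, edgeR adjusted p = 0.0020). Gjc1 differed between astrocyte-like and RGL-like cells by -0.08922 in library 1 and 0.40 in library 2, on 9 to 13 UMIs per class. Gjb6 differed between endothelial-like and pericyte-like cells by 0.51 and -0.42, and between SMC-like and pericyte-like cells by -0.35 and 0.425, on at most 39 UMIs. Gjb6 was found in 1.57% to 3.79% of cells of these vascular classes, against 1.745% and 1.499% of microglia-like cells.

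Gja1 was also present in unnamed cluster 16, which no comparison used and which was led by genes of DNA replication such as Mcm6 and Hells. It stood there at 46.0 CPM in library 1 and 43.8 CPM in library 2, in 36.6% and 30.9% of cells. Microglia-like cells held 5.34 and 8.81 CPM.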

How the results depend on the processing

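Of 363 log2 differences of members under alternatives, 348 kept their direction, or stayed uncalled, and their side of the threshold, 8 lost the call, 6 gained it and 1 turned. The turned value was Gja1 in SMC-like against pericyte-like cells, at 0.07521 with doublets kept. The count of members called changed by over 1.5 times in 1 case: arterial- against capillary-like cells gave 1 call in place of 2 without the library block, and the cause was not tested. No paired analysis of mice was possible because each genotype has 1 library. Scaling to total counts shifted the all-gene median by -0.34 for astrocyte-like against RGL-like cells, -0.32 for SMC-like against pericyte-like, 0.30 for fibroblast-like against astrocyte-like and -0.74 for oligodendrocyte-like against OPC-like cells, where higher calls fell from 52.6%, 48.8%, 46.6% and 52.1% of all calls to 25.7% and 28.2%, rose to 60.9% and fell to 21.1%. Oligodendrocyte-like against OPC-like cells could not be fitted at the 10% mitochondrial limit or with connexins in clustering, nor arterial- against capillary-like cells with doublets kept. Of 270 CPM values under alternatives, 214 stayed within their Poisson limits and 56 moved, 19 of them with free RNA subtracted. Of 138 shares of cells, 128 moved with thinning or a minimum of 2 UMIs. The few OPC-, venous- and fibroblast-like cells limit precision there.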

Other observations

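The pannexin Panx1, which forms channels in single membranes, stood at 41.9 and 46.6 CPM in nIPC- and neuroblast-like cells and 4.78 and 4.40 CPM in RGL-like cells, a difference of -3.20 ± 0.20 (edgeR adjusted p = 6.2e-56). It was also higher in OPC-like than oligodendrocyte-like cells, at 36.4 and 42.5 CPM against 1.26 and 0.884 CPM. Panx2 was higher in RGL-like than astrocyte-like cells by 2.34 ± 0.53 on 3 and 5 UMIs in astrocyte-like cells, and Panx3 had 0 UMIs.

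Tjp1, the scaffold of tight and gap junction plaques, was lower in SMC-like than pericyte-like cells by 2.28 ± 0.13 (edgeR adjusted p = 9.7e-13), at 105.6 and 98.5 CPM against 590 and 656 CPM. Cav1, the coat protein of caveolae, was higher in SMC-like cells by 1.51 ± 0.12 (edgeR adjusted p = 5.6e-10). Endothelial-like cells held Tjp1 at 628 and 673 CPM, and pericyte-like cluster 23 held endothelial markers above its pericyte markers. For Tjp1 and Cav1, SMC-like cells were not compared with pericyte-like cluster 21 alone. Ccn3, a secreted protein reported to bind connexins, was higher in arterial- than capillary-like cells by 7.08 ± 0.29 (edgeR adjusted p = 2.4e-54), at 80.1 and 96.1 CPM against 1 and 3 UMIs. In fibroblast-like cells Ccn3 stood at 144 CPM in library 1 and 18.0 CPM in library 2.

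Some small counts lay in single cells. In committed oligodendrocyte-like cells of library 2, 27 of 34 Gja1 UMIs, 13 of 14 Gjb6 UMIs and 10 of 10 Gjc1 UMIs each lay in 1 cell. Choroid plexus-like cells, 29 in library 1 and 336 in library 2, held Gjc1 at 3.77 and 13.96 CPM, in 3.45% and 19.6% of cells. The libraries filled the clusters of this class unequally: cluster 17 had 28 and 227 cells (median 4601 and 6060 UMIs), and cluster 27, at a median of 43886 UMIs in library 2, had 1 and 109. The 2 shares are therefore not of the same mix of cells. In library 2 Gjc1 stood at 13.6 CPM in cluster 17 and 14.1 CPM in cluster 27.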
